A study of Mus musculus with 16 samples.

Results

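The corticotropin-releasing hormone system was followed through 5 genes, picked by symbol from the deposited tables: the ligands Crh and Ucn, the receptors Crhr1 and Crhr2, and the binding protein Crhbp. All 5 were present among the 24062 genes with read counts and the 23991 genes with FPKM values, where FPKM is a read level scaled to transcript length and library size. The libraries came from whole brains, cerebellum included, of 16 adolescent female C57BL/6J mice taken on postnatal day 45, with 1 brain per library and 4 mice in each of 4 groups. The Water-Water (WW) mice drank water only. The Nicotine-Water (NW) mice had 200 µg/ml nicotine for 22 h per day and water in the daily session. The Water-Ethanol mice, marked by their initials in the plots, had water and then 20% v/v ethanol on 4 days by drinking in the dark, a limited daily session of ethanol access, with a last session of 4 h. The Nicotine-Ethanol (NE) mice had both. All mice were of 1 inbred strain and 1 sex, were housed singly and were killed at the end of the last session.

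Corticotropin-releasing hormone, the product of Crh, is made in the paraventricular hypothalamus, where it drives the pituitary release of corticotropin, and also in the amygdala, cortex and other brain regions. It acts mainly on the receptor CRHR1, whereas urocortin, the product of Ucn, binds CRHR1 and CRHR2, and a secreted binding protein, the product of Crhbp, holds both peptides away from their receptors. Both receptors couple mainly to Gs and cyclic AMP, and the system is known for its part in the stress response and in studies of alcohol and nicotine dependence. In whole-brain RNA, fewer cells of a type and less RNA per cell cannot be told apart.

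The genes lie apart in the GRCm38 genome. Crh (ENSMUSG00000049796) spans 19693401 to 19695396 on the minus strand of chromosome 3 with 2 exons, and Ucn (ENSMUSG00000038676) spans 31137989 to 31138895 on the minus strand of chromosome 5, also with 2 exons. Crhr1 (ENSMUSG00000018634) runs from 104132882 to 104175518 on the plus strand of chromosome 11 in 13 exons, and Crhr2 (ENSMUSG00000003476) from 55090049 to 55133016 on the minus strand of chromosome 6 in 14 exons. Crhbp (ENSMUSG00000021680) lies at 95431376 to 95444831 on the minus strand of chromosome 13 in 7 exons. No exon of another gene overlapped an exon of any of the 5, either in the count table or in the GENCODE M21 annotation. In the FPKM table Ucn was assigned to a locus of 415703 bases, against a gene span of 907 bases, so its FPKM is read here beside its counts.

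Per length, the main receptor was the most abundant transcript of the system in every brain. Over the 16 mice the FPKM of Crhr1 had a median of 12.99 (range 9.72 to 15.1), that of Crhbp 7.89 (6.65 to 9.33) and that of Crh 3.96 (2.64 to 5.71). Crhr2 had a median FPKM of 0.590 (0.445 to 0.698) and Ucn one of 0.533 (0.147 to 0.977). Crhr1 exceeded Crhbp, Crhbp exceeded Crh and Crh exceeded Crhr2 in 16 of 16 mice each, with median FPKM ratios of 1.71, 1.95 and 7.22. Crhr2 had the higher FPKM of the lowest pair in 10 of 16 mice, but whether the FPKM of Ucn holds reads of Ucn alone was not settled, so no order is given for Crhr2 and Ucn. The ligands of CRHR2 that are not members, Ucn2 and Ucn3, had median FPKM of 0.123 and 0.200.

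**Figure D1:**
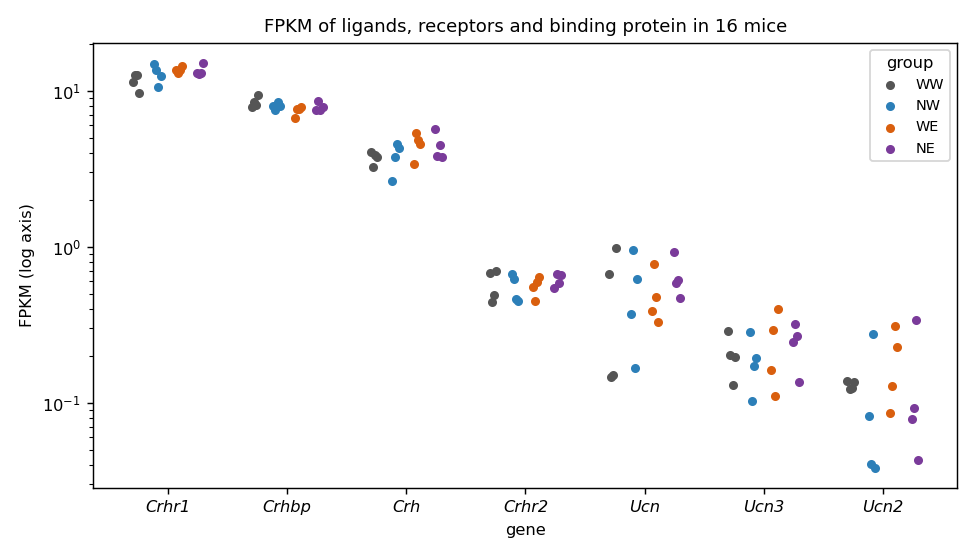
FPKM on a log axis for the 5 genes of the system and for Ucn2 and Ucn3, 1 point per mouse, coloured by group. The levels fall from Crhr1 (median 12.99) through Crhbp (7.89) and Crh (3.96) to Crhr2 and the urocortin genes, all of which stay below 1.

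Libraries held between 27100352 and 32880979 counts, with a median of 29448284. At this depth Crhr1 had 642 to 1076 counts per mouse, Crhbp 293 to 396, Crh 89 to 208 and Crhr2 32 to 52, and these 4 genes passed the filter on low counts in every comparison. Ucn, with 2 to 14 counts (median 7), did not pass it in any of the 7 comparisons with all mice of their groups. Mice of a group varied by a coefficient of variation of 18.4% for Crh against a counting error of 8.54%, by 9.67% against 3.35% for Crhr1 and by 6.94% against 5.34% for Crhbp. For Crhr2 the spread within groups, 17.2%, was close to the counting error of 15.4%, and for Ucn the values were 54.9% and 37.0%.

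The brains were not alike in the RNA levels of regional markers. The summed level of 8 cerebellum marker genes was 289 CPM (counts scaled to library size) in WW replicate 21 and 462 in NW replicate 10, against 1017 to 1253 in the other 14 mice. All 8 markers were detected in the tissue, as were the 8 markers of whole brain, and none of the 10 pituitary markers passed the filter on low counts. Values that lean on these mice are given with and without them below. The libraries also differed in the share of counts from Rn45s, a ribosomal RNA gene. It was 3.90% in NW replicate 10 and 1.37% in NW replicate 7, against 0.274% to 0.729% in the other 14 mice. Its part in the values of these mice was not tested. The score of olfactory bulb markers, their mean centred log2 CPM, was lower than in WW in NW (difference -0.38) and in NE (-0.44), at an exact permutation p of 0.0286 each. In Water-Ethanol its difference was -0.45 (exact permutation p = 0.114). That of meninges markers was lower in NE (-0.31, exact permutation p = 0.0286), with -0.22 in NW (p = 0.143) and -0.26 in Water-Ethanol (p = 0.114). These p-values were not adjusted for the number of lists and comparisons examined. The summed olfactory bulb markers were at 87.5 to 90.8 CPM in WW, 52.0 to 84.5 in NW, 41.9 to 93.8 in Water-Ethanol and 48.3 to 83.5 in NE, and their part in the differences from WW was not tested. Levels below are CPM scaled by TMM, a correction for library composition. In each of the 7 comparisons, 4 members were tested by edgeR's quasi-likelihood test with Benjamini-Hochberg adjustment over all genes at a threshold of 0.05. The 3 comparisons with WW share the same 4 control mice.

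Crh, the ligand that gives the system its name, was at the same mean level with and without nicotine, and its mean was 19.1% higher in mice that had drunk ethanol, a difference that did not pass the adjusted test. The WW mice had 4.72, 3.78, 4.33 and 4.08 CPM and the NW mice 2.86, 4.29, 5.09 and 4.72. The Water-Ethanol mice had 3.79, 5.94, 5.25 and 5.10 CPM and the NE mice 6.41, 4.34, 5.20 and 4.29. The WW values were tightly grouped, the NW values lay on both sides of them, and in each ethanol group the upper mice exceeded every WW mouse while the lower ones fell among them: 3 of 4 Water-Ethanol and 2 of 4 NE mice lay above all WW mice. Mean CPM was 4.23 ± 0.398 for WW, 4.24 ± 0.977 for NW, 5.02 ± 0.898 for Water-Ethanol and 5.06 ± 0.992 for NE (± SD over 4 mice). Against WW the log2 fold change of Crh was 0.00 in NW (SE 0.164, adjusted p = 1.00 in edgeR), 0.26 in Water-Ethanol (SE 0.134, adjusted p = 0.319) and 0.27 in NE (SE 0.139, adjusted p = 0.341). Over all 16 mice the effect of ethanol on Crh was 0.26 (95% interval 0.02 to 0.51, edgeR adjusted p = 0.191), and the effect of nicotine 0.01 (-0.24 to 0.25, adjusted p = 0.994). The exact permutation test of the ethanol effect within nicotine strata gave p = 0.0678 (two-sided). The difference of Crh was smallest without NE replicate 2, the highest mouse, at 0.13 in NE (adjusted p = 0.689 in edgeR), and without Water-Ethanol replicate 14 at 0.16 in Water-Ethanol (adjusted p = 0.529). Without WW replicate 21 it was 0.24 in Water-Ethanol and 0.26 in NE (edgeR adjusted p = 0.345 and 0.368), and without both brains low in cerebellum markers it was -0.11 in NW (adjusted p = 0.840).

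Ucn, the gene of urocortin, was too low for a comparison. The counts were 7, 2, 2 and 13 in WW and 5, 14, 3 and 10 in NW. They were 6, 10, 7 and 4 in Water-Ethanol and 13, 7, 8 and 6 in NE. Every group overlapped every other, and the WW group alone held both the lowest counts and nearly the highest. Means of 0.212 ± 0.189, 0.258 ± 0.155, 0.231 ± 0.0805 and 0.284 ± 0.0827 CPM for WW, NW, Water-Ethanol and NE (± SD over 4 mice) differed by less than the spread between mice, with exact permutation p from 0.400 to 0.886 in the 4 comparisons of 2 groups. Without the 2 brains low in cerebellum markers the exact permutation p against WW ran from 0.114 to 0.2 for the 3 other groups. A difference of this size was not detectable at this depth.

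**Figure D2:**
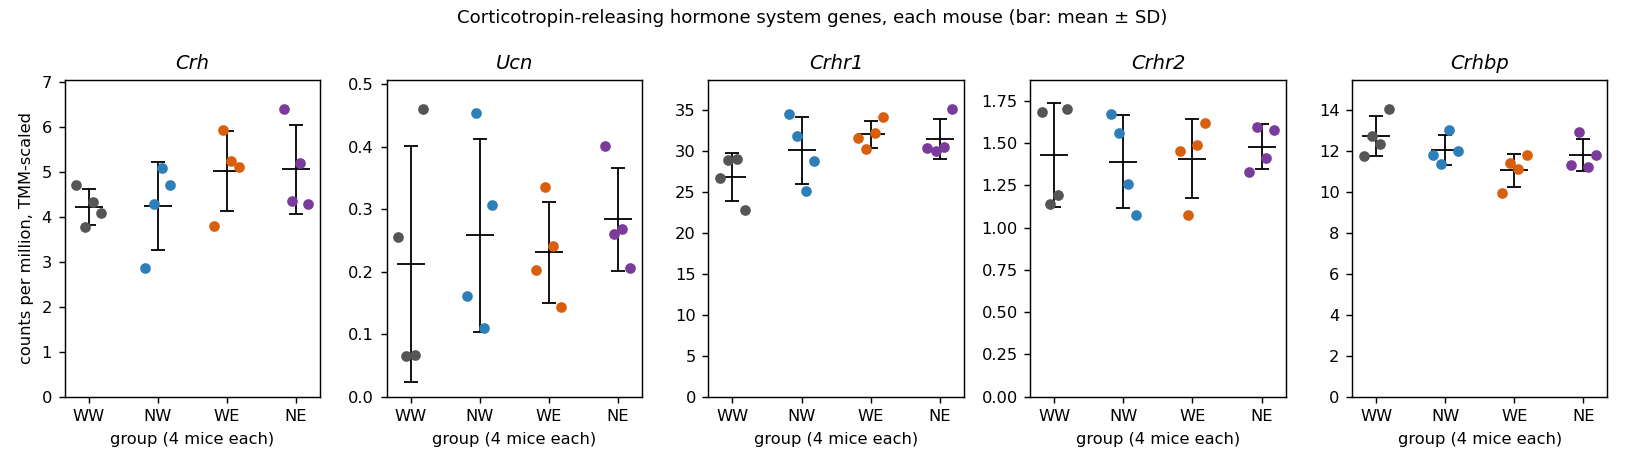
Level of each gene of the system in CPM by group, 1 point per mouse, with the group mean (horizontal bar) and SD (error bar), n = 4 mice per group. For Crhr1 all Water-Ethanol and NE mice lie above the highest WW mouse (29.0 CPM), whereas for Crh, Ucn, Crhr2 and Crhbp the groups overlap.

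Crhr1, the receptor with the highest affinity for the Crh peptide, was the member that set the ethanol groups most clearly apart from WW. The WW mice had 26.8, 28.9, 29.0 and 22.8 CPM. The Water-Ethanol mice had 31.7, 30.2, 32.2 and 34.2 CPM, and the NE mice 30.3, 30.0, 30.5 and 35.2. All 8 mice that drank ethanol were above all 4 WW mice, an arrangement found in 1.96% of the 15592 genes tested in all mice. The NW mice, at 34.6, 31.9, 25.1 and 28.8 CPM, reached from within the WW range to the top of the ethanol groups. Group means were 26.9 ± 2.91 for WW, 30.1 ± 4.08 for NW, 32.1 ± 1.66 for Water-Ethanol and 31.5 ± 2.48 for NE (± SD over 4 mice). Exact permutation tests gave p = 0.0286 for Water-Ethanol and for NE against WW, the smallest value that 4 against 4 mice can give, but 0.339 after adjustment over the 30 exact tests of members.

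The mean of Crhr1 was 19.4% higher in Water-Ethanol and 17.3% higher in NE than in WW, and the difference did not pass the adjusted edgeR test in any comparison. The log2 fold change against WW was 0.26 in Water-Ethanol (SE 0.0724, 95% interval 0.10 to 0.42, edgeR adjusted p = 0.0953) and 0.23 in NE (SE 0.0792, 95% interval 0.06 to 0.40, edgeR adjusted p = 0.172). DESeq2 called Crhr1 in Water-Ethanol, with an adjusted p of 0.0324, and not in NE, where its adjusted p was 0.0986. In Water-Ethanol DESeq2 called 583 genes in all, against 70 in edgeR. In NW the log2 fold change was 0.16 (SE 0.1003, adjusted p = 0.688 in edgeR). Over the 16 mice the effect of ethanol on Crhr1 was 0.16 (95% interval 0.03 to 0.30, adjusted p = 0.141 in edgeR), that of nicotine 0.07 (-0.07 to 0.20, adjusted p = 0.785) and the interaction -0.19 (-0.45 to 0.07, adjusted p = 0.828). The ethanol effect passed the edgeR threshold when NW replicate 7, the highest NW mouse, was left out (0.20, adjusted p = 0.0466). In that fit edgeR called 1006 genes in all, against 731 with all 16 mice.

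Crhr1 was lowest in the 2 brains that were low in cerebellum markers, WW replicate 21 at 22.8 CPM and NW replicate 10 at 25.1 CPM. Without WW replicate 21 the log2 fold change of Crhr1 was 0.19 in Water-Ethanol (edgeR adjusted p = 0.0645) and 0.16 in NE (adjusted p = 0.185). All Water-Ethanol and all NE mice then still lay above the other 3 WW mice (28.2 ± 1.27 CPM, SD, n = 3), at an exact permutation p of 0.0571 for each comparison. Without both low brains the ethanol effect over the other 14 mice was 0.09 (edgeR adjusted p = 0.303). In NW against WW the log2 fold change was then 0.17 (adjusted p = 0.483 in edgeR).

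Crhr2, the receptor that prefers the urocortins, did not separate the groups. The WW mice had 1.68, 1.14, 1.19 and 1.70 CPM and the NW mice 1.67, 1.56, 1.25 and 1.07. The Water-Ethanol mice had 1.45, 1.07, 1.49 and 1.62 CPM and the NE mice 1.33, 1.60, 1.41 and 1.58. The 4 groups covered nearly the same range, and no NE mouse lay outside the WW range. Log2 fold changes of Crhr2 ran from -0.04 to 0.10 over the 7 comparisons, with edgeR adjusted p of 0.887 or more. The 95% interval for Water-Ethanol against WW was -0.43 to 0.41, so at 32 to 52 counts per mouse a moderate change in either direction would lie within the error.

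Crhbp, the secreted protein that sequesters the peptides, had its lowest mean in the Water-Ethanol mice. The WW mice had 11.7, 12.7, 12.3 and 14.05 CPM and the Water-Ethanol mice 9.91, 11.4, 11.1 and 11.8. The NW mice had 11.8, 11.3, 13.02 and 11.96 CPM and the NE mice 11.3, 12.9, 11.2 and 11.8. All but 1 Water-Ethanol mouse were below every WW mouse, and that 1 passed only the lowest WW value, while the NE and NW mice spread through the WW range and below it. Mean CPM was 12.7 ± 0.980 for WW, 12.02 ± 0.720 for NW, 11.04 ± 0.804 for Water-Ethanol and 11.8 ± 0.775 for NE (± SD over 4 mice). The log2 fold change of Crhbp against WW was -0.20 in Water-Ethanol (SE 0.0765, 95% interval -0.37 to -0.03, edgeR adjusted p = 0.185), -0.11 in NE (adjusted p = 0.487) and -0.08 in NW (adjusted p = 0.791). The exact permutation test gave p = 0.0571 for Water-Ethanol against WW, and p = 0.0473 for the ethanol effect within nicotine strata (0.339 adjusted over the 30 exact tests). WW replicate 21 was the highest of all mice for Crhbp, and without it the log2 fold change in Water-Ethanol was -0.15 (edgeR adjusted p = 0.268), that in NE -0.06 (adjusted p = 0.712) and that in NW -0.03 (adjusted p = 0.918).

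No member was called by edgeR in any of the 7 comparisons. In NW against WW, 0 of 4 tested members and 0% of the 15344 genes tested were called, and at an unadjusted p under 0.05 the members gave 0 and all genes 8.44%. In Water-Ethanol against WW, 0 of 4 members were called beside 0.457% of all genes, and 2 members (Crhr1 higher, Crhbp lower) had an unadjusted p under 0.05 beside 19.3% of all genes. In NE against WW the calls were 0 of 4 members and 0.313% of genes, with 1 member (Crhr1) under the unadjusted limit beside 17.5% of genes. With DESeq2 the calls among members were 1 in Water-Ethanol against WW (Crhr1), beside 583 genes in all. In the NW and NE comparisons with WW, DESeq2 called 0 members beside 125 and 508 genes in all. Crhr1 was the 1 member whose values lay wholly above WW in Water-Ethanol, as they did for 5% of all genes, and in NE, as for 5.17%, and no member lay wholly below WW, as 5.8% and 5.51% of genes did. In NW against WW no member was apart, against 1.92% of genes wholly higher and 4.06% wholly lower.

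Setting NE directly against Water-Ethanol compared ethanol drinkers with and without nicotine, which continued through the ethanol days. The paper reports that the nicotine-exposed mice drank more ethanol in the last session and reached higher blood ethanol. Nicotine and ethanol dose therefore cannot be told apart in this comparison, and the effects over 16 mice share this limit. The log2 fold changes were 0.02 for Crh, -0.03 for Crhr1, 0.07 for Crhr2 and 0.09 for Crhbp. The 95% intervals were widest for Crhr2 (-0.29 to 0.42) and Crh (-0.31 to 0.34) and narrower for Crhr1 (-0.15 to 0.10) and Crhbp (-0.07 to 0.25). edgeR called 0 of 4 members and 0% of genes, with 0 members and 5.8% of genes under an unadjusted p of 0.05. DESeq2 called 0 members and 2 genes in all. No member lay wholly above or below, against 2.04% and 1.45% of genes. Over all 16 mice edgeR called 0 members for the nicotine effect (0% of genes, 9.99% under the unadjusted limit, 0 members). For it DESeq2 called 0 members and 9 genes in all. For the ethanol effect edgeR called 0 members against 4.69% of genes (3.07% higher, 1.62% lower). Under the unadjusted limit were 2 members (Crh and Crhr1, both higher) against 22.7% of genes. For this effect DESeq2 called 0 members and 1124 genes in all. The interaction gave 0 members and 0% of genes (6.76% under the unadjusted limit, 0 members), and DESeq2 again called 0 members, with 1 gene in all.

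**Figure D3:**
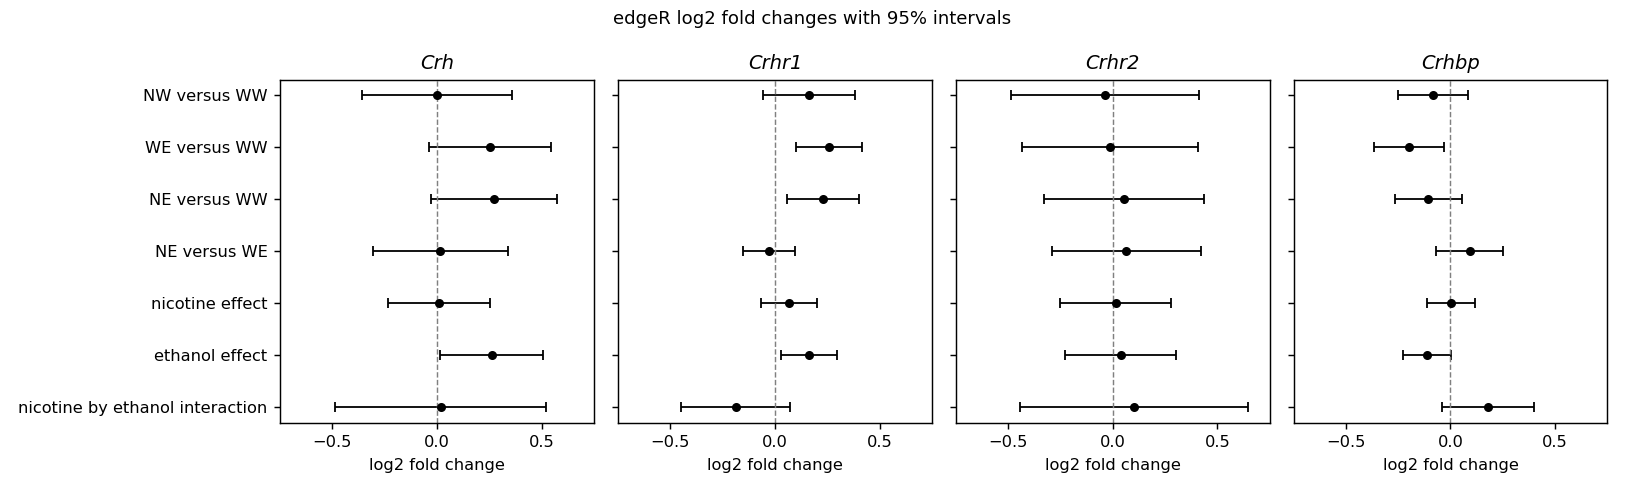
Log2 fold changes from edgeR (points) with 95% intervals (bars) for the 4 members that passed the filter on low counts, in 4 comparisons of 2 groups and in the effects fitted over 16 mice. Crhr1 lies to the right of 0 in Water-Ethanol (0.26) and NE (0.23) against WW, Crhbp lies to the left in Water-Ethanol (-0.20), and the intervals of Crhr2 cover 0 throughout.

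The relation of the members to regional marker levels was examined for 6 lists, with group means removed from both measures. Of the 30 relations, 2 passed the adjustment by r, and of these Crhr1 also passed by rho and Crhbp did not. The permutations shuffled the centred values over all 16 mice and took no account of the group means removed. Their p-values are therefore too small, and the pass of Crhbp by r may not hold. Crhr1 varied with the cerebellum score (Pearson's r = 0.796, Spearman's rho = 0.756 over 16 mice, permutation p = 0.00036 and 0.00103, adjusted p = 0.0108 and 0.0309). With WW replicate 21 and NW replicate 10 then left out, the r of Crhr1 over 14 mice was 0.529 (permutation p = 0.0522). The relation no longer passed and rested in part on these brains. The group means removed were still those of all 16 mice, so this r is not wholly free of the 2 brains. Crhbp varied in the opposite direction (r = -0.661, rho = -0.585, permutation p = 0.00305 and 0.0195, adjusted p = 0.0457 and 0.259). With the same mice left out in the same way its r was -0.371 (permutation p = 0.192), so it too no longer passed and rested in part on them. The exact permutation p for the cerebellum score against WW ran from 0.571 to 0.83 over the other 3 groups. With the score in the fit of 16 mice the log2 fold change of Crhr1 was 0.18 in Water-Ethanol (adjusted p = 0.125 in edgeR) and 0.15 in NE (adjusted p = 0.195). That of Crhbp was -0.15 in Water-Ethanol (edgeR adjusted p = 0.220) and -0.06 in NE (adjusted p = 0.677). The ethanol effect with the score was 0.10 for Crhr1 (adjusted p = 0.177 in edgeR) and -0.07 for Crhbp (adjusted p = 0.382). Crh, Crhr2 and Ucn passed with none of the 6 lists, the hypothalamus list included (r = 0.342, 0.179 and 0.0218, adjusted p of 0.58 or more).

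**Figure D4:**
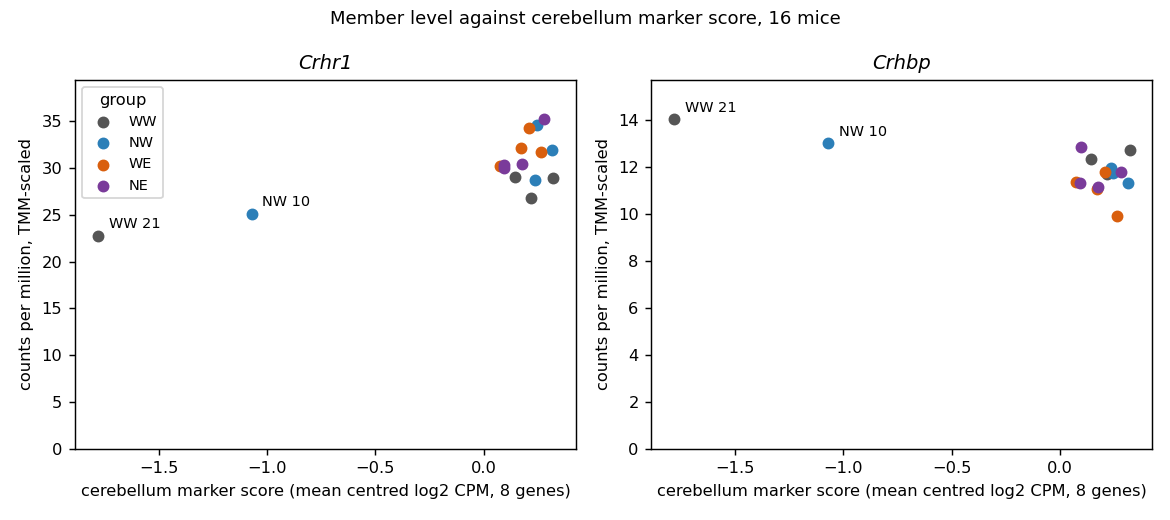
CPM of Crhr1 and Crhbp against the cerebellum marker score (mean of log2 CPM of 8 genes, each centred on its mean over mice), 1 point per mouse, coloured by group. WW replicate 21 and NW replicate 10 lie far to the left, with the lowest Crhr1 (22.8 and 25.1 CPM) and the highest Crhbp (14.05 and 13.02 CPM), and the other 14 mice share a narrow range of scores.

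The genes whose levels followed each member most closely were found among 15591 others, on log2 CPM with group means removed over 16 mice. For Crh they were Sppl2a (r = 0.880), Zdhhc17 (0.877) and Npat (0.873). For Crhr1 they were Kif26b (0.934), Unc5b (0.931) and Car4 (0.928). For Crhr2 they were Bad (0.855), BC029214 (0.836) and Tarbp2 (0.833), and for Crhbp Rasd2 (0.929), Fam111a (0.909) and Nrgn (0.888). The 4 lists had no gene in common, and the values are a description of these libraries, picked from many.

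Around the members, 54 genes of the pathway were listed by role, from other ligands to feedback, of which 52 were in the table and 48 or 49 were tested. In NW against WW and in NE against Water-Ethanol 0 of 48 were called, beside 0% of all genes. In Water-Ethanol against WW 1 of 48 was called, lower, beside 0.457% of all genes, and in NE against WW 1 of 48, higher, beside 0.313%. For the ethanol effect 3 of 49 were called, 2 higher and 1 lower, beside 4.69% of all genes. The median log2 fold change of the listed genes was 0.01 in Water-Ethanol, 0.01 in NE and 0.02 for the ethanol effect, against 0.00 over all genes tested in each. For the nicotine effect and the interaction 0 of 49 were called, beside 0% of all genes.

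Among the steps after the receptor, Adcy9, an adenylyl cyclase that makes cyclic AMP on chromosome 16 (4284886 to 4420498), rose with ethanol. The WW mice had 107, 106, 107 and 110 CPM and the NW mice 104, 115, 118 and 112. The Water-Ethanol mice had 116, 118, 130 and 121 CPM and the NE mice 126, 126, 129 and 120. Every ethanol mouse was above every WW mouse, as in 1.96% of all genes, while the lowest Water-Ethanol values fell among those of NW. The log2 fold change of Adcy9 was 0.22 in NE against WW (SE 0.0348, adjusted p = 0.0372 in edgeR), 0.18 in Water-Ethanol (SE 0.0402, adjusted p = 0.0677) and 0.17 for the ethanol effect (SE 0.0313, adjusted p = 0.00607). The NE call was lost in edgeR, with adjusted p from 0.0581 to 0.176, when any single mouse other than WW replicate 21 was left out (WW replicates 18, 19 and 20 and NE replicates 2, 3, 4 and 5), and with limma on FPKM, while the log2 fold change stayed between 0.20 and 0.24. The ethanol effect on Adcy9 was called in every fit that left out 1 mouse. In Water-Ethanol Adcy9 was called by DESeq2 (adjusted p = 0.00743), and by edgeR without WW replicate 21 (0.19, adjusted p = 0.0262) and with the cerebellum score in the model (0.20, adjusted p = 0.0369). The other 15 genes of the list of Gs, cyclases, PKA and CREB were not called in any comparison.

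Rgs4, a regulator that shortens signalling by Gq and Gi proteins, on chromosome 1 (169741477 to 169747642), fell in the ethanol mice. It had 442, 489, 477 and 475 CPM in WW and 369, 391, 329 and 399 in Water-Ethanol, so these groups did not overlap, and 5.8% of all genes were likewise wholly lower. The NW mice had 394, 471, 494 and 436 CPM and the NE mice 361, 438, 366 and 438, below all WW mice, as for 5.51% of all genes. The log2 fold change of Rgs4 was -0.33 in Water-Ethanol against WW (SE 0.0560, adjusted p = 0.0424 in edgeR), -0.23 in NE (SE 0.0649, adjusted p = 0.118) and -0.25 for the ethanol effect (SE 0.0569, adjusted p = 0.0189). The Water-Ethanol call of Rgs4 was lost in edgeR, with adjusted p from 0.0540 to 0.145, without WW replicate 19 or 20 or without any single Water-Ethanol mouse (replicates 13, 14, 15 and 16), while the log2 fold change stayed between -0.37 and -0.28. It was also lost in edgeR's model of 16 mice (adjusted p = 0.0777) and with limma on log2(FPKM + 1) and log2(FPKM + 0.1) (adjusted p = 0.128 and 0.115). Without WW replicate 21 the call of Rgs4 held (-0.33, adjusted p = 0.0144 in edgeR). DESeq2 also called Rgs4 in NE (adjusted p = 0.0243). The other 4 tested genes of receptor desensitisation were not called.

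Jun, an immediate early transcription factor on chromosome 4 (95049036 to 95052222), passed the test for the ethanol effect only, where it was higher. It had 66.0, 57.3, 64.4 and 60.0 CPM in WW and 56.9, 59.6, 59.6 and 63.6 in NW. The Water-Ethanol mice had 69.9, 61.5, 69.4 and 64.6 CPM and the NE mice 71.7, 71.5, 70.2 and 65.9. The lowest mice of both ethanol groups fell within the range of WW. The log2 fold change was 0.16 over 16 mice (SE 0.0398, adjusted p = 0.0248 in edgeR), 0.18 in NE against WW (adjusted p = 0.127) and 0.11 in Water-Ethanol (adjusted p = 0.320). The call of Jun was lost, with edgeR adjusted p from 0.0527 to 0.0554, without Water-Ethanol replicate 15, NW replicate 8 or NE replicate 2 or 4. The other 4 genes of the list of transcripts induced by receptor signalling, Fos, Nr4a1, Nr4a2 and Bdnf, were not called.

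The hormones next to Crh in the axis did not pass the adjusted edgeR test in the fits of all mice of the groups compared. Avp, the vasopressin gene and a partner of the Crh peptide at the pituitary, had 5.99 ± 0.781 CPM for WW, 8.34 ± 1.81 for NW, 7.45 ± 2.76 for Water-Ethanol and 9.21 ± 2.50 for NE (± SD over 4 mice). Against WW its log2 fold change was 0.48 in NW, not called by edgeR, and 0.62 in NE (SE 0.181, adjusted p = 0.129 in edgeR). DESeq2 called Avp in NE (adjusted p = 0.0220), and so did edgeR without NE replicate 5 (0.79, adjusted p = 0.0472). Pomc, the precursor of corticotropin, had 0.985 ± 0.0858 CPM for WW, 1.76 ± 0.776 for NW, 1.28 ± 0.302 for Water-Ethanol and 1.17 ± 0.316 for NE, with a log2 fold change of 0.82 in NW (SE 0.278, adjusted p = 0.420 in edgeR). The highest Pomc value, 2.88 CPM, was in NW replicate 10, where the summed level of the 10 pituitary markers was 14.4 CPM against 0.284 to 2.25 in the other 15 mice. Most of that sum was Prl (8.15 CPM) and Gh (5.79 CPM), and no other marker of the list exceeded 0.337 CPM in NW. The part of these markers in the difference of Pomc was not tested. Without NW replicate 10 the log2 fold change of Pomc in NW was 0.48 (adjusted p = 0.447 in edgeR). All 4 NW mice (1.13 to 2.88 CPM) lay above all 4 WW mice (0.878 to 1.07 CPM) for Pomc, as for 1.92% of all genes. Nr3c1, the glucocorticoid receptor that closes the feedback loop, had 169 ± 10.6 CPM for WW, 156 ± 11.5 for NW, 157 ± 4.2 for Water-Ethanol and 164 ± 8.07 for NE, with a log2 fold change of -0.10 in Water-Ethanol (SE 0.0449, adjusted p = 0.241 in edgeR). Ucn2 had 1 to 8 counts per mouse and Ucn3 4 to 14, too few for a comparison of groups.

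**Figure D5:**
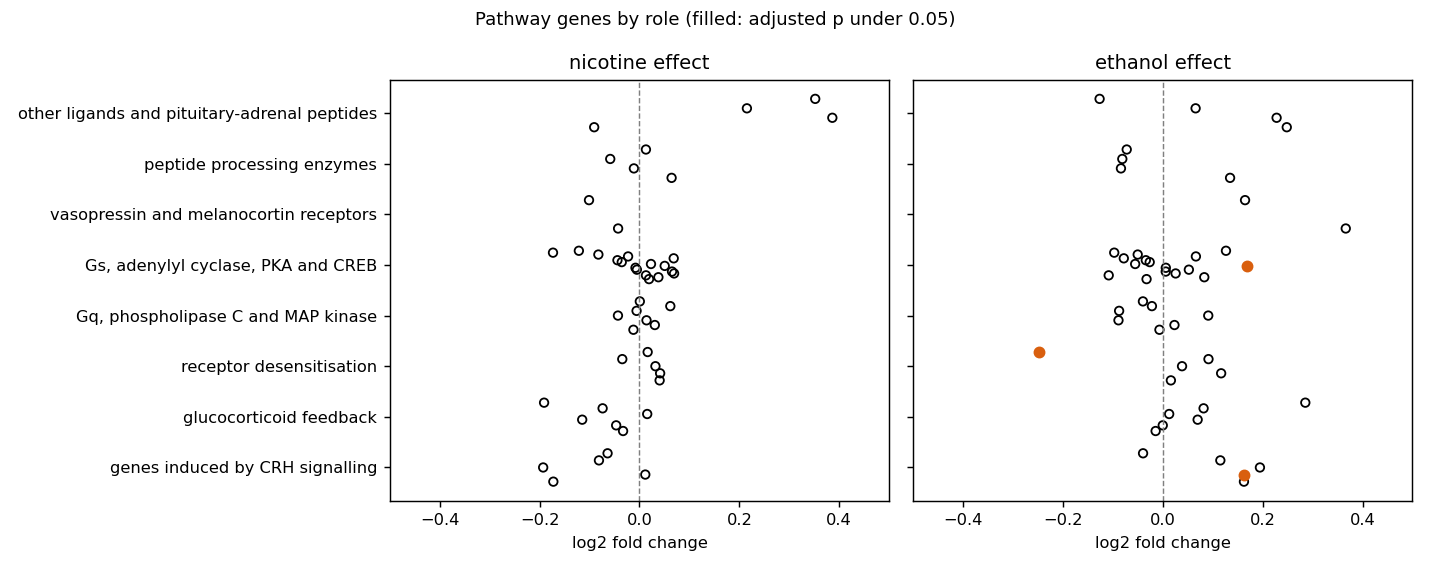
Log2 fold changes of the tested pathway genes, 1 point per gene, by role, for the nicotine effect and the ethanol effect over 16 mice, with genes of edgeR adjusted p under 0.05 filled. No gene is filled for nicotine, and for ethanol Adcy9 (0.17) and Jun (0.16) are filled to the right and Rgs4 (-0.25) to the left.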

How the data were processed

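RNA-seq was made from whole brains of 16 mice, and each mouse was assigned to WW, NW, Water-Ethanol or NE by the group given in its labels. Its title in the labels matched it to its columns of counts and FPKM. The authors trimmed reads with Trimmomatic 0.32 and aligned them to GRCm38 with TopHat2. The gene counts that the authors deposited are whole numbers, not normalized. FPKM per gene, deposited by the authors from the Cufflinks tools, is scaled for transcript length and library size. The program and strand setting behind the counts are not given in the sources used here, and Cuffdiff2 was not rerun. The tables held 0 columns of other samples.

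Counts were analysed in R 4.3.3 with edgeR 4.0.16 (TMM factors, the default filter on low counts, quasi-likelihood test), DESeq2 1.42.0 and limma 3.58.1, and other values in Python 3.11.15 (matplotlib 3.10.9, numpy 2.4.6, pandas 2.3.3, scipy 1.17.1). Fits of 2 groups gave NW, Water-Ethanol and NE against WW and NE against Water-Ethanol, and a fit of all 16 mice gave the main effects and the interaction. Nothing in the labels places the mice of a group in separate litters, so p-values measure the spread between these mice. Relations used 100000 permutations. The scripts for tests across genes were checked, for some of the comparisons, on simulated counts with known changes. Those changes were all larger than the member differences given here, so the check does not cover differences of that size. Alternatives were RLE factors, no filter, DESeq2, limma on log2(FPKM + 1) and log2(FPKM + 0.1), fits of all mice, a cerebellum score as a covariate, and leaving out mice.

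The 5 members and the marker and pathway lists were chosen with earlier results of these data known. The text names the members, pathway genes called in any comparison, Ucn2, Ucn3, Avp, Pomc and Nr3c1, and the 3 genes most like each tested member. Intervals cover counting and replicate error only.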

Additional observations from a re-analysis of the deposited data

Results flagged for a closer look

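Crhr1 in NE replicate 5, at 35.2 CPM, stood apart from the other 3 NE mice, whose values were 30.0 to 30.5 CPM. Its gap to the nearest of them was 0.909 of the range of the group, above Dixon's 95% critical value for 4 samples. This was the only one of the 20 groups of member values examined that passed this value, and chance gives about 1 in 20.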

How the results depend on the processing

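Each log2 fold change of Crh, Crhr1, Crhr2 and Crhbp was recomputed with other settings. Of 320 values with 1 mouse left out, 276 kept their direction and their side of the threshold, 43 changed sign and 1 passed the threshold. Of 200 values under other settings, 185 kept both, 14 changed sign and 1 passed. The number of members called moved in 2 comparisons: DESeq2 called 1 member, Crhr1, in Water-Ethanol against WW, and the ethanol effect gave 0 to 1 members with 1 mouse left out, the 1 being Crhr1 without NW replicate 7. Values that changed sign were near 0 to begin with, all with an adjusted p above 0.8, and the cause was not tested. They were, for NW against WW, Crh at -0.000427 in the fit of all 16 mice and at -0.11 without the 2 brains low in cerebellum markers, and Crhr2 at 0.11 without those brains; for Water-Ethanol, Crhr2 at 0.0216 with the cerebellum score. Limma on log2(FPKM + 1) and on log2(FPKM + 0.1) gave Crh -0.0241 and -0.0288 in NE against Water-Ethanol, -0.00801 and -0.0119 for nicotine, and -0.0322 and -0.0338 for the interaction. Crhbp was at -8.59e-05 for nicotine in DESeq2, and Crh at -0.00109 for the interaction with the cerebellum score. Without the 2 low brains Crh was at -0.0345 for nicotine and Crhr2 at -0.0389 for the interaction. With 1 mouse left out, Crh ranged from -0.11 to 0.15 in NW, -0.13 to 0.11 in NE against Water-Ethanol, -0.0564 to 0.0771 for nicotine and -0.14 to 0.11 for the interaction. Crhr2 ranged from -0.14 to 0.0744 in NW, -0.11 to 0.0985 in Water-Ethanol, -0.042 to 0.15 in NE, -0.0478 to 0.13 in NE against Water-Ethanol, -0.0388 to 0.0725 for nicotine, -0.0181 to 0.0919 for ethanol and -0.0143 to 0.20 for the interaction. Crhr1 ranged from -0.0869 to 0.00102 in NE against Water-Ethanol and Crhbp from -0.0253 to 0.0331 for nicotine. No reversal occurred for Crh, Crhr1 or Crhbp in Water-Ethanol or NE against WW, nor for their ethanol effects.

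The number of all genes called by edgeR depended on the setting: 70 in Water-Ethanol against WW became 583 in DESeq2, 143 without the filter on low counts and 0 with limma on FPKM, and 48 in NE became 508 in DESeq2. Without WW replicate 21 edgeR called 797 genes in Water-Ethanol and 283 in NE. In the model of 16 mice edgeR called 28 in Water-Ethanol and 112 in NW, where the main count was 0, and with the cerebellum score 265 in Water-Ethanol, 247 in NE and 234 in NW. DESeq2 called 125 genes in NW. For the ethanol effect 731 became 1124 in DESeq2, 1145 with the score and 1006 without NW replicate 7. No paired analysis was possible because each mouse number occurs in 1 group. Ucn did not pass the filter in the 7 comparisons of all mice, though it passed in some fits that left out mice, and Crhr2 had a counting error close to its spread between mice.

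The fits with the cerebellum score for 2 groups and the fits without both low brains were added after the data were examined.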
